A study of Mus musculus with 6 samples.

Results

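The genes described here encode 10 amino acid transporters of the solute carrier (Slc) families, namely Slc7a1, Slc7a2, Slc7a5, Slc3a2, Slc1a4, Slc1a5, Slc38a1, Slc38a2, Slc38a4 and Slc6a9. They were chosen by name, and each was found among the 19938 genes that a probeset of the array names alone. A probeset is the group of short probes that reports a transcript, and the 10 genes have 11 of them, 2 for Slc38a1 and 1 for each of the others. Where a gene has more than 1, the probeset with the highest mean stands for it. Expression was measured in primary osteoblasts after 4 h with recombinant murine C5a (3 arrays) or without it (unstimulated, 3 arrays). C5a is the anaphylatoxin that complement activation releases from the component C5. The cells of both groups came from male wild-type C57BL6/J mice of 8 to 12 weeks, had grown out of digested long bone, were used at passage 2 to 3, were kept for 14 days in osteogenic medium and spent the last 4 h in proliferation medium, with or without C5a. The cultures are numbered 2, 4 and 5, read here as the mouse, and the cell pool of each mouse was split between the treatments, which gives 3 pairs. Such cultures are outgrown cells and not a sorted population.

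Amino acids cross the plasma membrane on carriers that differ in their substrates and in what drives them. System A carriers such as SNAT2 (Slc38a2) bring in small neutral amino acids together with sodium, and exchangers such as LAT1 (Slc7a5, with its heavy chain Slc3a2) then trade intracellular glutamine for leucine and other large neutral amino acids. Osteoblasts depend on such uptake because they secrete large amounts of type I collagen, which is rich in glycine and proline, and the transcription factor ATF4 is a known activator of several of these carriers and of amino acid import in osteoblasts.

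The values are log2 intensities after robust multiarray average (RMA) normalization, and the medians of the 6 arrays lay between 5.89 and 5.93. Every difference is a log2 value of C5a minus unstimulated. Differences were tested by limma over all 35556 probesets with the mouse as a block, and adjusted p-values are those of Benjamini and Hochberg over all probesets. Col1a1, the main collagen of bone, was near one level on every array (13.32 to 13.76 with C5a and 13.41 to 13.79 without). Ibsp and Alpl, transcripts of maturing osteoblasts, were lowest in mouse 5, with 7.02 and 9.29 in its C5a culture and 7.56 and 9.63 in its unstimulated culture. On average Phex and Dmp1 were also lowest there (5.38 and 6.08). Sp7 was not, with 6.38 in mouse 2, 8.49 in mouse 4 and 6.53 in mouse 5. The summed level of 13 markers of macrophages and osteoclasts (log2 of the sum of linear values) ran from 11.49 to 14.19 with C5a and from 11.39 to 14.52 in unstimulated cells, and mouse 5 was the lowest in both groups. Of the macrophage markers, Cd68 averaged 10.95, 11.4 and 6.64 in mice 2, 4 and 5, and Lyz2 12.9, 13.06 and 9.01. For the osteoclast markers Ctsk (10.73, 10.91 and 10.37) and Acp5 (9.13, 8.48 and 8.1) the gap of mouse 5 was much smaller. The receptor transcript C5ar1 averaged 5.63 in mouse 5, against 8.98 and 9.09 in mice 2 and 4. In such mixed RNA, fewer cells of a type and less transcript per cell cannot be told apart.

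No transporter passed an adjusted p under 0.05, a threshold that 4 of the 35556 probesets passed (0.0112%), and 0 passed it without the block or by the t-test of the methods. At an unadjusted p under 0.05, limma had 5 of the 10 past the threshold, 3 higher and 2 lower with C5a, against 16.2% of all probesets. At the thresholds that the methods of the study name, a fold change (read as at least 1.5) together with an unadjusted p under 0.05, Slc7a5 and Slc7a1 were higher with C5a and Slc38a2 was lower. That is 2 of 10 higher, against 1.71% of all probesets, and 1 of 10 lower, against 1.57%. The adjusted p of Slc7a5 and Slc7a1 was 0.0878 and 0.112 over all probesets, and both fell below 0.05 (0.0266 and 0.0435) when only the probesets that name 1 gene were tested, of which 3.65% were called. Among probesets at or above the 40th percentile of mean values, where 1.75% were called, Slc7a5 alone of the transporters passed (0.0431). The median change of the 10 genes was 0.15 and their median absolute change 0.30, beside 0.01 and 0.09 over all probesets. All probesets include dim ones and those that name no gene, while 9 of the 10 transporters lay at or above the 40th percentile. In either direction, 1127 of the 21334 probesets at or above it passed the thresholds of the methods. Of the 21789 that name 1 gene, 956 did, and of all 35556, 1166 did. In 6 of the 10 genes all 3 mice moved the same way, 4 higher and 2 lower, against 36.0% of all probesets. The groups did not overlap for 3 of the 10, Slc7a1, Slc3a2 and Slc38a2, against 15.2%.

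**Figure D1:**
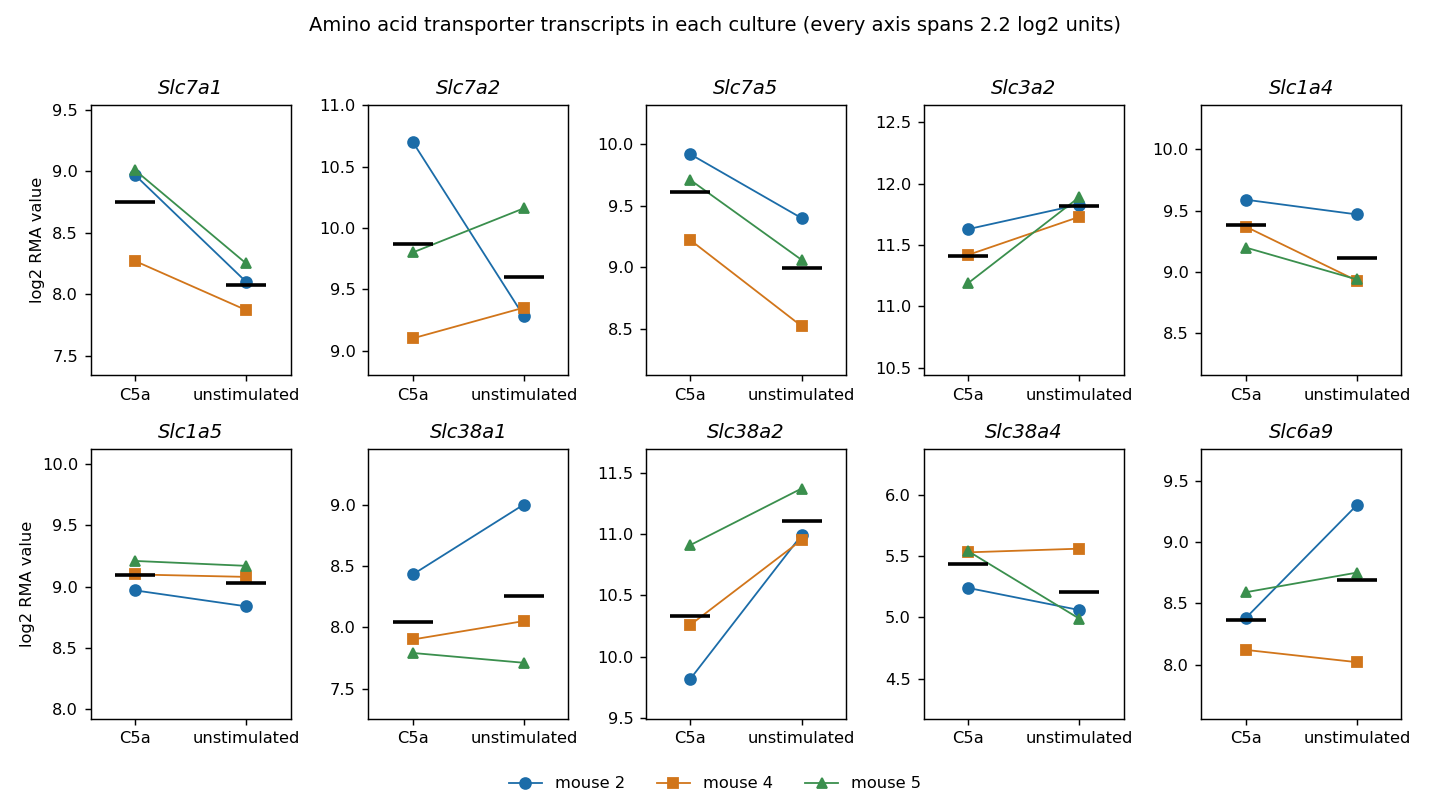
Level of each transporter transcript (log2 RMA value, vertical axis) in the C5a culture (left) and the unstimulated culture (right) of mice 2, 4 and 5, joined by a line per mouse, with bars at the group means. The lines of Slc7a1 and Slc7a5 lie higher at C5a in every mouse and those of Slc38a2 and Slc3a2 lower, while Slc7a2 differs in direction between mice.

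Sequence around the start of transcription is shown for Slc7a1 and Slc38a2, which passed the thresholds of the methods in limma with the block. It is also shown for Slc1a4 and Slc7a11, chosen because a motif was found there. RefSeq promoters (build GRCm38.p6, 250 bases before to 50 after a start) were at hand for 6 of the 10 genes, as 11 windows, and not for Slc7a5, Slc7a2, Slc1a5 and Slc38a1. Both strands were searched for TGATGNAA, the core of the C/EBP-ATF response element that ATF4 binds, and for TGANTCA, the site of AP-1, the dimer of Fos and Jun proteins. Of all 32851 windows, 3.97% hold the ATF4 core and 7.81% the AP-1 site. Only Slc1a4, of the 6 transporters with windows, had the ATF4 core in them. It lay over positions -4 to 4 around the start (there is no position 0). Only Slc7a1 had the AP-1 site, at positions -123 to -117. The cystine carrier Slc7a11, described further on, had the ATF4 core at -66 to -59 and again at -47 to -40. It belongs to 28 other transporters, 23 of which have a window. Among these Slc7a7 also had the ATF4 core, with 2 matches in a window, and its transcript changed by -0.26. The AP-1 site was found in 5 (Slc38a10, Slc38a7, Slc3a1, Slc6a14 and Slc6a17). Their changes, in this order, were -0.04, -0.36, 0.07, -0.09 and 1.23. Such a match is a description of letters, and binding was not measured. Sequence outside the windows was not searched, so a motif there would be missed. In the stretches of 100 bases that follow, read 5′ to 3′ along the gene, capitals mark these motifs. They lie at chr5:148399955-148400054 (Slc7a1), chr15:96699729-96699828 (Slc38a2), chr11:20332704-20332803 (Slc1a4) and chr3:50443614-50443713 (Slc7a11), all on the minus strand. The stretch of Slc38a2 holds neither of them and is shown beside that of Slc7a1 because the transcripts differed in opposite directions. This pair was thus picked by its outcome, and the stretches cover unlike positions, -150 to -51 for Slc7a1 and -100 to -1 for Slc38a2. Whether a motif goes with a direction of change was not tested.
Slc7a1: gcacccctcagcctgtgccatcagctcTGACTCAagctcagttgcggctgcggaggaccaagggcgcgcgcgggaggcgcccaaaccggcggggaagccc
Slc38a2: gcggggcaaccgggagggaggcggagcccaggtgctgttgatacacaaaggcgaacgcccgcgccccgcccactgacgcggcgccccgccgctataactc
Slc1a4: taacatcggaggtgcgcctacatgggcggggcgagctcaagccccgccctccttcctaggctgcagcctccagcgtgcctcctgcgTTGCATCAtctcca
Slc7a11: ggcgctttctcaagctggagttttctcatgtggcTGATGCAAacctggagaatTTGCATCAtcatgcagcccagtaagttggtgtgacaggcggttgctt

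LAT1 imports leucine and other large neutral amino acids, and it reaches the cell surface as a dimer with the heavy chain 4F2hc (CD98), which Slc3a2 encodes. The transcripts of the dimer's chains differed in opposite directions. Slc7a5 (probeset 10582275, chromosome 8 at 121881146 to 121907686) had 9.92, 9.22 and 9.71 in the C5a cultures of mice 2, 4 and 5, against 9.40, 8.52 and 9.06 in their unstimulated cultures. The ranges of the groups overlapped, because mouse 4 was low in both, but each mouse was higher with C5a, by 0.52, 0.70 and 0.65. The mean change was 0.62 (95% interval 0.43 to 0.82), or 1.54-fold. This was the narrowest response among the transporters past the thresholds of the methods, with a standard error of 0.07. Without the block for the mouse the same change had a standard error of 0.27 and an interval of -0.05 to 1.30, and Slc7a5 no longer passed those thresholds.

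Slc3a2 (10465772, chromosome 19 at 8706882 to 8723369) had 11.63, 11.42 and 11.19 with C5a, against 11.83, 11.73 and 11.89 without. Every C5a culture lay below every unstimulated one, and the difference was small in mouse 2 and larger in mouse 5. The mean change was -0.41 (95% interval -0.72 to -0.10), a ratio of C5a to unstimulated of 0.754, with an adjusted p of 0.205 by limma. It did not reach the 1.5-fold threshold, and without mouse 5 the change of Slc3a2 was -0.26. The change of Slc7a5 exceeded that of Slc3a2 by 0.72, 1.01 and 1.35 in mice 2, 4 and 5. This gap between the chains was not tested.

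Slc7a1 encodes CAT1, the broadly expressed carrier of arginine, lysine and ornithine, and Slc7a2 encodes CAT2, a related carrier best known from macrophages and liver. The probeset of Slc7a1 (10535852, chromosome 5 at 148327410 to 148399904) had 8.97, 8.27 and 9.01 with C5a, against 8.10, 7.87 and 8.25 in unstimulated cells. The groups did not overlap, by a margin of a few hundredths between the C5a culture of mouse 4 and the unstimulated culture of mouse 5. Within mice 2, 4 and 5 the changes were 0.88, 0.40 and 0.76, with a mean of 0.68 (95% interval 0.38 to 0.98), or 1.6-fold. Slc7a2 (10571444, chromosome 8 at 40862341 to 40922070) had 10.70, 9.10 and 9.80 with C5a, against 9.28, 9.35 and 10.16 without. It was higher by 1.42 in mouse 2 and lower in mice 4 and 5 (-0.25 and -0.36). The mean of 0.27 therefore had the widest interval of all 10 genes, -0.72 to 1.26, and it was -0.30 without mouse 2. The median change of the macrophage and osteoclast markers was -0.34, -0.51 and 0.11 in mice 2, 4 and 5, with 12 of the 13 mean changes below 0, and their part in the changes of the transporters was not tested.

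The sodium-coupled neutral carriers SNAT1, SNAT2 and SNAT4 are encoded by Slc38a1, Slc38a2 and Slc38a4, which lie near each other on chromosome 15. Slc38a2 (10431894, chromosome 15 at 96687392 to 96699728), the carrier of system A that cells adjust to their amino acid supply, had 9.82, 10.26 and 10.91 with C5a, against 10.99, 10.95 and 11.37 without. The C5a culture of mouse 5 stood just below the lowest unstimulated culture, and those of mice 2 and 4 well below it. The changes within mice 2, 4 and 5 were -1.17, -0.69 and -0.46, with a mean of -0.77 (95% interval -1.17 to -0.38, adjusted p of 0.125 by limma). The ratio of C5a to unstimulated was 0.585, the lowest among the 10 genes. Mouse 2 carried the largest part of this difference and, without it, the change was -0.58, just short of 1.5-fold. The same holds for Slc7a1, whose change was 0.58 without mouse 2. Mouse 5 had the lowest summed level of macrophage and osteoclast markers. Without it the changes of Slc38a2, Slc7a1 and Slc7a5 were -0.93, 0.64 and 0.61, all past the thresholds of the methods. Mice 2 and 4, which remain, had the higher levels of these markers, and the part of such cells in the changes was not tested.

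Neither neighbour of Slc38a2 passed the thresholds. Slc38a1 (10431874, chromosome 15 at 96571418 to 96643438) had 8.43, 7.90 and 7.79 with C5a, against 9.0, 8.05 and 7.71 without, and the second probeset of the gene (10431872) had 5.69, 5.27 and 5.31, against 5.96, 5.34 and 5.42. Their mean changes were -0.21 (95% interval -0.58 to 0.15) and -0.15 (95% interval -0.35 to 0.05), so that both read a small negative value whose interval includes 0. Slc38a1 differed more between mice than between treatments, with means of 8.71, 7.97 and 7.75 in mice 2, 4 and 5. Slc38a4 (10431915, chromosome 15 at 96994816 to 97055956), an imprinted carrier best known from liver and placenta, had 5.24, 5.53 and 5.54 with C5a, against 5.06, 5.56 and 4.99 without. Its mean value was the only one of the 10 below the 40th percentile of all probesets, and its change of 0.23 (95% interval -0.10 to 0.57) came mainly from mouse 5.

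The exchangers ASCT1 (Slc1a4) and ASCT2 (Slc1a5) carry alanine, serine and cysteine, and ASCT2 also carries glutamine. Slc1a4 (10384539, chromosome 11 at 20302180 to 20332713) had 9.59, 9.37 and 9.20 with C5a, against 9.47, 8.93 and 8.94 without. It was higher with C5a in each mouse, by 0.11, 0.44 and 0.27, although the ranges overlapped. The mean of 0.27 (95% interval 0.04 to 0.51) corresponds to 1.21-fold, below the fold threshold. Slc1a5 (10550332, chromosome 7 at 16781334 to 16798274) had 8.97, 9.10 and 9.21 with C5a, against 8.84, 9.08 and 9.17 without. This was the steadiest of the transporters, with a change of 0.06 (95% interval -0.12 to 0.25). The upper end corresponds to a 1.19-fold increase, and without the block the interval ran from -0.21 to 0.34. The intervals of these exchangers overlap, and the difference between them was not tested.

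Slc6a9 encodes GlyT1, which takes up glycine with sodium and chloride. Its probeset (10507500, chromosome 4 at 117835258 to 117869305) had 8.38, 8.12 and 8.59 with C5a, against 9.30, 8.02 and 8.75 without. Only in mouse 2 was there a large difference, of -0.92, and the changes in mice 4 and 5 were 0.10 and -0.16. The mean of -0.33 (95% interval -0.87 to 0.22) was -0.03 without mouse 2. Mouse 2 also showed the largest change of Slc7a1, Slc7a2, Slc1a5, Slc38a1 and Slc38a2, upward for Slc7a1, Slc7a2 and Slc1a5 and downward for the Slc38 genes.

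**Figure D2:**
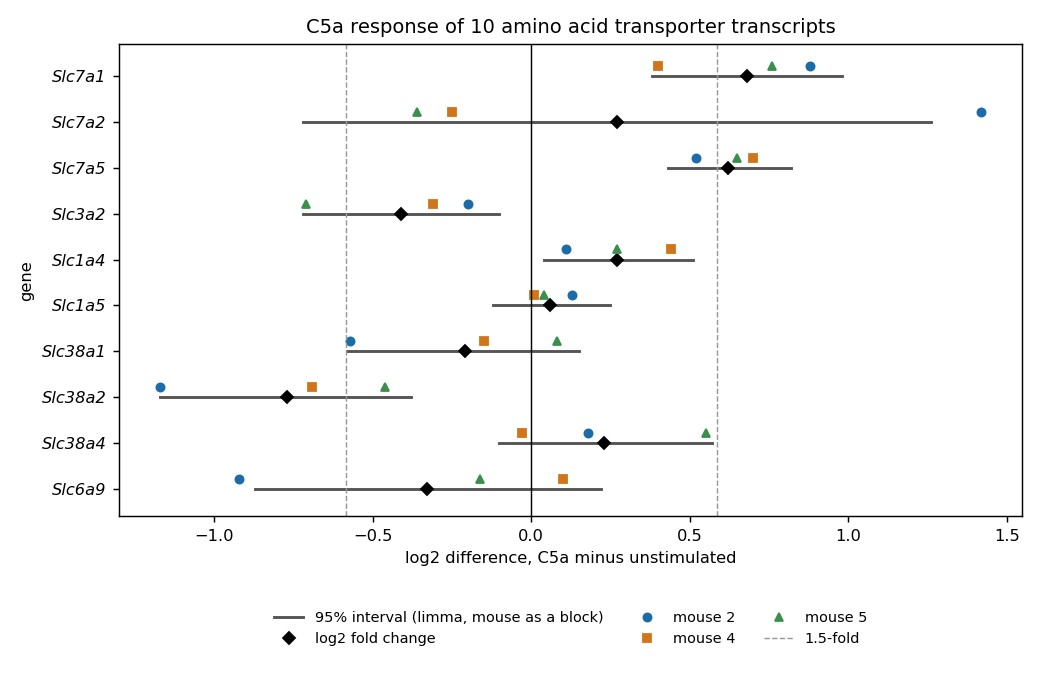
Log2 difference of each transporter transcript, C5a minus unstimulated, with black diamonds for the mean change, lines for its 95% interval from limma with the mouse as a block, coloured symbols for mice 2, 4 and 5 and dashed lines at 1.5-fold. Slc7a1 (0.68) and Slc7a5 (0.62) lie past 1.5-fold on the right and Slc38a2 (-0.77) on the left, and the spread between mice is widest for Slc7a2.

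The mice also differed in their levels of these transcripts, whatever the treatment. The mean of the 2 cultures of a mouse spanned 0.19 between mice for Slc3a2, 0.29 for Slc1a5 and 0.39 for Slc38a4. It spanned 0.96 for Slc38a1, 0.79 for Slc7a5, 0.78 for Slc6a9, 0.77 for Slc7a2 and 0.73 for Slc38a2. For Slc7a5 the span between mice (0.79) was thus larger than the change with C5a (0.62), and for Slc7a1 it was smaller (0.56 against 0.68). Without the block this spread stays in the error, and then 2 of the 10 passed the thresholds of the methods, Slc7a1 and Slc38a2, against 2.6% of all probesets, with 0 past an adjusted p under 0.05. By the methods' t-test 0 passed those thresholds, beside 665 of all 35556 probesets. Only 1, Slc3a2, had an unadjusted p under 0.05 by this test, and the share of all probesets at that p was not counted.

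Beyond these 10, 28 other amino acid transporters were measured, some of which serve lysosomes or vesicles rather than the cell surface. None passed the adjusted threshold (0 by limma with and without the block). At an unadjusted p under 0.05, 6 were higher and 2 lower, beside 16.2% of all probesets in either direction, and at the thresholds of the methods 3 were higher and 1 was lower, beside 1.71% and 1.57%. Their median change was 0.03, against 0.01 over all probesets. Slc43a2, the facilitator LAT4 of large neutral amino acids, had 9.79, 9.40 and 8.64 with C5a, against 8.71, 8.38 and 7.66 without. The groups overlapped, but the change was 1.08, 1.02 and 0.99 in mice 2, 4 and 5 and averaged 1.03 (95% interval 0.85 to 1.21, adjusted p of 0.0704 by limma), the smallest adjusted p of the 38 transporters. Slc6a17, a carrier of neutral amino acids known from synaptic vesicles, had 8.36, 7.14 and 7.80, against 6.60, 6.31 and 6.71, a change of 1.23 without overlap of the groups. Slc1a3, the glutamate and aspartate carrier GLAST, had 6.95, 8.16 and 8.41 with C5a, against 8.32, 10.16 and 9.26 without. The groups overlapped here too. The change of -1.41 (95% interval -2.00 to -0.82) was the largest in size of all 38, and it was lower in each mouse. The taurine carrier Slc6a6 changed less, by 0.44 (95% interval 0.18 to 0.70). By the methods' t-test 1 of the 28 passed those thresholds, beside 665 of all 35556 probesets.

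LAT1 is 1 of several light chains that share the heavy chain of Slc3a2, and the others were named after their values were seen. The cystine and glutamate exchanger xCT (Slc7a11) had 6.73, 7.20 and 5.09 with C5a, against 5.06, 5.73 and 4.79 without. It was higher in each mouse, least in mouse 5, with a mean of 1.15 (95% interval 0.41 to 1.89, adjusted p of 0.163 by limma). The groups overlapped, and the cultures of mouse 5 and all unstimulated cultures lay below the array medians of 5.89 to 5.93. The y+LAT2 chain Slc7a6 changed by 0.46 (95% interval 0.17 to 0.75), with no overlap of the groups. For Slc7a7, Slc7a8 and Slc7a10 the changes were -0.26, 0.28 and 0.02, and each interval included 0. Slc7a8, the LAT2 chain, was low in both cultures of mouse 5 (6.04 with C5a and 6.08 without), against 8.28 to 9.28 in the cultures of mice 2 and 4.

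**Figure D3:**
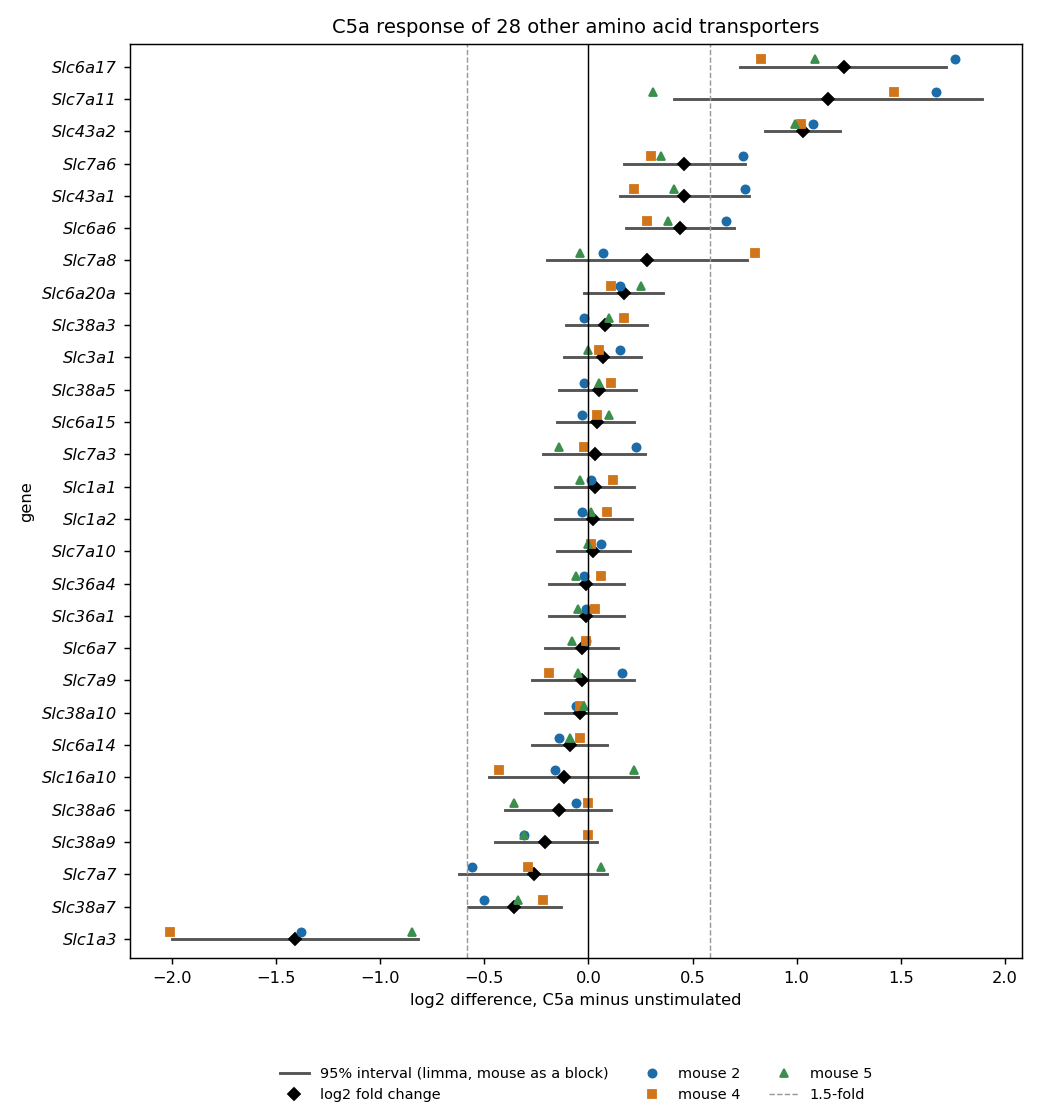
Log2 difference, C5a minus unstimulated, of 28 further amino acid transporter transcripts in the order of their change, with the same symbols as for the 10 transporters. Slc6a17 (1.23), Slc7a11 (1.15) and Slc43a2 (1.03) stand to the right of 1.5-fold and Slc1a3 (-1.41) to the left.

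ATF4 raises the transcription of many carriers and of enzymes that make amino acids when these are scarce. Of 19 measured genes of this axis 0 passed the adjusted threshold in limma, with or without the block. At the thresholds of the methods 0 were higher and 4 lower with C5a (1.71% and 1.57% of all probesets), and at an unadjusted p under 0.05 the counts were 0 and 8 (16.2% in either direction). The median change was -0.23, and 17 of 19 values were below 0. Atf4 itself had 8.41, 8.39 and 8.10 with C5a, against 8.76, 8.64 and 8.74 without, a change of -0.41 (95% interval -0.67 to -0.14, adjusted p of 0.164 by limma). All C5a cultures were below all unstimulated ones. Asns, the asparagine synthetase and a standard target of ATF4, changed by -0.20 (95% interval -0.50 to 0.10). The 4 genes past the thresholds were Sesn2 (-1.04), Chac1 (-0.95), Ddit4 (-0.85) and Ddit3 (-0.76), which encode a leucine sensor, an enzyme that degrades glutathione, an inhibitor of mTORC1 and the stress factor CHOP. None of them carries amino acids or makes them. Enzymes of amino acid synthesis in the list were named after their values were seen. Aldh18a1 changed by -0.56 (95% interval -0.91 to -0.22) and Psat1 by -0.35 (95% interval -0.64 to -0.05). Both were lower in each mouse and short of 1.5-fold. Phgdh, Psph and Shmt2 changed by -0.11, -0.09 and -0.13, and each interval included 0.

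Enzymes that use the carried substrates were measured for 17 genes of arginine, polyamine and glutamine use. At the thresholds of the methods 2 were higher and 0 lower (1.71% and 1.57% of all probesets), while 7 were higher and 3 lower at an unadjusted p under 0.05 (16.2% in either direction) and 0 passed the adjusted threshold in limma. Gfpt2, which spends glutamine at the entry of the hexosamine pathway, had 10.41, 9.81 and 10.04 with C5a, against 7.84, 8.44 and 7.71 without, a change of 2.09. Glul, the glutamine synthetase, had 10.57, 9.67 and 9.90, against 10.06, 9.36 and 8.95, a change of 0.59 (95% interval 0.23 to 0.95). Srm, which makes spermidine from ornithine-derived putrescine, changed by 0.56 (95% interval 0.30 to 0.81), and Asl, which makes arginine, by -0.37 (95% interval -0.57 to -0.17). Both values lay below 1.5-fold.

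**Figure D4:**
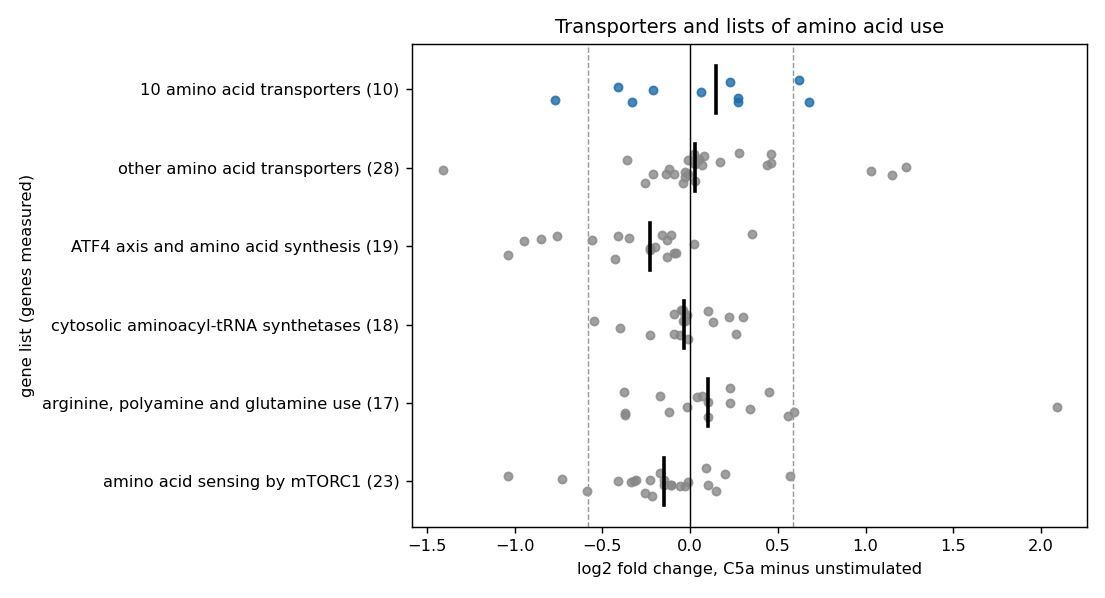
Log2 fold changes, C5a minus unstimulated, of the 10 transporters (blue) and of the genes of 5 lists of amino acid use (grey), with a black bar at each median, the number of genes measured in brackets, points spread vertically for legibility only and dashed lines at 1.5-fold. The 10 transporters lie on both sides of 0 with a median of 0.15, and the ATF4 list lies mostly below 0 with a median of -0.23.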

How the data were processed

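Total RNA of 3 C5a-stimulated and 3 unstimulated osteoblast cultures was hybridised to Affymetrix Mouse Gene 1.0 ST arrays. The authors analysed the images in Expression Console and BRB-ArrayTools and deposited log2 values per probeset after RMA, without centring per gene. Program versions are not given in the sources used here, nor whether other arrays were normalized with these 6. Microarray values carry no read depth, so the number of arrays limits the precision.

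From the deposited values, 35556 probesets were fitted with limma 3.58.1 (lmFit, eBayes, R 4.3.3) with treatment and mouse as terms. The mouse was blocked because the study split each mouse's cells between treatments. Deviations from the group means correlated at 0.495 to 0.684 within a mouse and at -0.446 to -0.0353 between mice. Deviations of a group cancel out, so positive values within a mouse force negative ones between mice on balance. The negative values are therefore not separate evidence for the pairing. Intervals are limma's 95% intervals, with 2 residual and 2.77 prior degrees of freedom. The study names a t-test, which was run as an alternative and is called the methods' t-test (equal variances, no pairing).

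Probesets were named through the platform annotation. Those naming 1 gene number 21789, those naming several 1621 and those naming none 12146. The lists hold 155 symbols, 2 of them matched through older names, and 142 genes were measured. The transporters and lists were chosen with earlier results of these data known. Besides the 10 transporters, the text names up to 4 genes per list with the smallest p, Atf4, Asns, C5ar1 and a few cell markers, and it marks exceptions. Lists received counts and medians and no set test. The fit was tested on simulated data. Marker lists of endothelial cells, adipocytes and chondrocytes were summed in the same way (C5a 7.96 to 8.14, 9.11 to 9.23 and 10.26 to 11.11, unstimulated 8.07 to 8.12, 9.12 to 9.50 and 10.52 to 11.25), and 8 osteoblast markers had 15.24 to 15.78 and 15.31 to 15.81.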

Additional observations from a re-analysis of the deposited data

How the results depend on the processing

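Of the 10 transporters, 0 passed the adjusted threshold in limma over all probesets, 1 when dim probesets were left out and 2 when only probesets naming 1 gene were tested. At the thresholds of the methods 3 passed, 2 without the mouse as a block (no replicate block) 0 by the methods' t-test and 2 by an unmoderated paired t statistic, under which Slc38a2 did not pass, and leaving out each mouse gave 1 to 3, with 1 (Slc7a5) without mouse 2. Their median change was 0.15, 0.06 without the dim probesets and 0.0 to 0.14 without 1 mouse. Over the alternatives the adjusted p ran from 0.0266 to 0.69 for Slc7a5, from 0.0435 to 0.6 for Slc7a1 and from 0.0519 to 0.637 for Slc38a2. The direction of 9 of the 10 held in every alternative that tested them (Slc38a4 was left out with the dim probesets). Slc7a2 ran from -0.30 (without mouse 2) to 0.59 (without mouse 5). Only median centring, quantile normalization and leaving out a mouse moved the estimates of single genes. The other alternatives left each estimate as it was, so they could not turn a direction. Without mouse 2, Slc38a1, Slc6a9 and Slc1a5 changed by only -0.03, -0.03 and 0.03. The cause of these shifts was not tested. In the block fit, leaving out 1 array removes its pair, so whole mice were left out. Of the other lists, the count past the thresholds of the methods moved to 1 (the methods' t-test) and 2 (the paired t statistic) from 4 for the other transporters, and the paired statistic gave 1 in place of 4 for the ATF4 list and 1 in place of 3 for mTORC1 sensing. For arginine, polyamine and glutamine use it was 1 in place of 2 without the block, by both t statistics and after median centring, and for the synthetases 1 in place of 0 without mouse 4. Over all probesets the adjusted threshold was passed by 4, and by 373 without dim probesets, by 795 of those naming 1 gene, and by 0 with either t statistic, without mouse 2 or without mouse 5. The thresholds of the methods were passed by 1166, and by 923 without the block, 665 by the methods' t-test, 517 by the paired statistic and 1754 without mouse 4. Groups of 3 arrays are too small for a check of single outlying samples.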

Other observations

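Amino acids that enter the cell are loaded on tRNA by synthetases and sensed by mTORC1. Among 18 measured cytosolic aminoacyl-tRNA synthetases, 0 were higher and 0 lower at the thresholds of the methods, and 1 was higher and 2 were lower at an unadjusted p under 0.05 in limma, a share close to the 16.2% of all probesets. Their median change was -0.04. Cars and Sars, the synthetases for cysteine and serine, had changes of -0.55 (95% interval -0.97 to -0.14) and -0.40 (95% interval -0.63 to -0.18), both lower in 3 of 3 mice and short of 1.5-fold. Farsa, a subunit of the enzyme for phenylalanine, had 0.26 and Mars1, for methionine, -0.23.

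Of 23 genes of amino acid sensing by mTORC1, 0 were higher and 3 lower at the thresholds of the methods (beside 1.71% and 1.57% over the array). The counts at an unadjusted p under 0.05 were 1 higher and 9 lower (beside 16.2% in either direction), with 0 past the adjusted threshold. The 3 were the sestrins Sesn1, Sesn2 and Sesn3, a family that holds mTORC1 back. Sesn1 had 7.68, 8.20 and 7.75 with C5a, against 8.67, 8.82 and 8.34 in unstimulated cells, a change of -0.73 (95% interval -1.01 to -0.46, adjusted p of 0.0998 by limma). Sesn2 had 8.59, 8.72 and 8.22, against 9.50, 9.42 and 9.73. Sesn3, named after its value was seen, changed by -0.59. Rheb, the GTPase that activates mTORC1, had 10.57, 10.23 and 10.55 with C5a, against 9.90, 9.85 and 9.89, a change of 0.57 (95% interval 0.34 to 0.81). The groups of Sesn1, Sesn2 and Rheb did not overlap. Nprl2, a subunit of an inhibitor of mTORC1, had -0.41 (95% interval -0.63 to -0.18). Rragb and Rragc, which are not such inhibitors and were named after their values were seen, changed by -0.32 and -0.26. These are levels of transcripts, and the activity of mTORC1 was not measured.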
